A study of Mus musculus with 12 samples.

Results

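The genes described here encode the proteins of the cytosolic ribosome. They were chosen by symbol in the probe annotation: Rpl or Rps followed by digits with at most an end letter or suffix, together with Rplp0, Rplp1, Rplp2 and Rpsa. Rps6k kinase genes and pseudogenes were left out, and a gene needed a probe set that named it alone. This gave 59 genes of 19937 genes measured, 22 of the small subunit and 37 of the large subunit. Another 16 symbols of the same kind, among them Rpl11, Rpl13a, Rps24 and Rps27, were named only on probe sets shared with other genes and are not among the 59.

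Newly made RNA was measured on 12 Affymetrix whole-transcript arrays, in 4 groups of 3 arrays. RNA was tagged for 60 min with 4-thiouridine, a uridine analogue that cells build into new transcripts, and the tagged RNA was then purified, amplified and hybridised. The first cell type was MPI-2, 1 macrophage line derived from fetal liver and induced and kept with GM-CSF in RPMI with fetal calf serum. It was given bacterial lipopolysaccharide (LPS, called R-LPS in the labels) or mock treatment. The second cell type was bone marrow-derived macrophages (BMM), differentiated ex vivo with M-CSF in DMEM with fetal calf serum, given R-LPS or mock treatment. All were from C57BL/6 mice. In the LPS groups the labelling began 30 min after LPS, so the tagged RNA was made between 30 and 90 min of stimulation. Cell type, growth factor and medium differed together, and the codes in the sample descriptions form separate number ranges for the 2 cell types, so cell type cannot be separated here from growth factor, medium or any shared handling. The titles call the replicates biological, and the MPI-2 replicates are of 1 line.

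A cytosolic ribosome has a small subunit, which reads the messenger RNA, and a large subunit, which joins amino acids. Each protein is needed in about the same number of copies as the others, and its gene is among the most actively transcribed in growing cells. Ribosomal protein messenger RNAs start with a run of pyrimidines, the terminal oligopyrimidine tract, through which the mTOR pathway and LARP1 set their translation and stability. Several of these genes carry small nucleolar RNA (snoRNA) genes in their introns, and most have many near-identical copies without introns elsewhere in the genome. The proportion of newly made RNA that a transcript takes up is measured here, which is not the amount of that RNA in the cell.

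Promoters were looked up in RefSeq's table (GRCm38.p6), and 47 of the 59 genes had one. A C at the first transcribed base followed by at least 4 pyrimidines stood at a start of 10 of the 47 genes (21.3%), against 813 of 27025 genes in the table (3.01%). The windows below cover 8 bases before the start and 22 bases from it for 6 genes whose values are described further on, with the pyrimidine run in capitals. They are shown because this run is the letter pattern by which the gene class is known.
Rps6, chr4:86857346-86857375, minus strand: agtcgggcCTCTTTTTCgtgacgcctccca
Rps15a, chr7:118116126-118116155, minus strand: tctgccatCTTCCCTCgccggtgagtgagt
Rplp2, chr7:141447643-141447672, plus strand: gcgtcttcCTTTCgccgccggacgccgccg
Rps21, chr2:180257371-180257400, plus strand: gacccgccCTCCTgcccaatagtgctgcgg
Rpl38, chr11:114668572-114668601, plus strand: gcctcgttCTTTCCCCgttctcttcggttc
Rps18, chr17:33955644-33955673, minus strand: cttccgctCTCTCTTCCacaggaggcctac
Of the 10 genes with the run, Rps6, Rps10, Rps15a, Rps21, Rpl28, Rpl32l and Rplp2 were higher in MPI-2 than in BMM in both treatments. Rpl38 was lower in MPI-2 under LPS at the probe set used and higher by the mean of its probe sets. Rpl14 and Rps18 passed in neither treatment at the probe set used. At another probe set, described further on, Rps18 was higher in MPI-2, by 2.28 in mock and 1.87 in LPS. At the probe sets used, the run thus stood mostly at the start of genes that were higher in MPI-2. The single lower call, that of Rpl38 in LPS, depended on the probe set.

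Other letter patterns were counted over the window of 250 bases before and 50 bases after each start. CCGGAAG, letters bound by ETS family factors such as GABP, stood on either strand in 18 of the 47 genes (38.3%), against 9.93% of all genes in the table. GGGCGG, the GC box of SP1, stood on either strand in 27 genes (57.4%), against 38.2%. A GC-centred palindrome of 10 bases, not spelled out here, stood in 6 genes (12.8%), against 0.525%, and these were Rpl10a, Rpl12, Rpl26, Rps6, Rps19 and Rps28. CACGTG, the palindromic E-box of MYC and its partners, stood in 5 genes (10.6%), against 8.09%. TATAAA on the gene's own strand within 50 bases before the start stood in 0 genes, against 3.15%. No pattern's letters contain another's. The upstream windows of Rps21, higher in MPI-2 in both treatments, and of Rpl38, whose direction differed between its probe sets, both held CCGGAAG, shown in capitals with the pyrimidine run at the start.
Rps21, chr2:180257299-180257398, plus strand: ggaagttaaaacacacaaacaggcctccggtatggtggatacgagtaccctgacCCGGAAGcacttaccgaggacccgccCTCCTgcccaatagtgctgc
Rpl38, chr11:114668500-114668599, plus strand: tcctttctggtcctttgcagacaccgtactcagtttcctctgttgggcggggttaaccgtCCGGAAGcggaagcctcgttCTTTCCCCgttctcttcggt
A match describes these letters in this window and is not a measured site.

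The values are deposited log2 expression after robust multi-array averaging (RMA), and they ran between 1.18 and 12.82. Differences were tested with limma over all 19937 genes with 4 group means, and adjusted p is Benjamini-Hochberg over those genes with a threshold of 0.05. A mean of 3.36 log2 units, the 95th percentile of 1027 olfactory receptor (Olfr) genes, was taken as background, and 55 of the 59 genes had a mean over the 12 arrays above it. Genes not above background on average were Rpl3l, Rpl10l, Rpl32l and Rpl39l. All 9 macrophage markers were above background in every group, and their summed log2 level was 72.15 to 72.28 on MPI-2 LPS arrays, 72.04 to 73.28 on MPI-2 mock arrays, 74.54 to 76.67 on BMM LPS arrays and 80.96 to 81.77 on BMM mock arrays. Of 4 B cell markers, none was above background in MPI-2 and Cd79b and Pax5 were above it in BMM, and 0 of 2 erythroid markers were above it in any group. T cell, fibroblast, neutrophil and hepatocyte lists had members above background in both cell types, 1 to 4 of 4 or 5 genes in each group. Their part in the results below was not tested. BMM arrays were more spread: the median SD of the 59 genes was 0.12 log2 units in MPI-2 LPS and 0.13 in MPI-2 mock, against 0.29 in BMM LPS and 0.29 in BMM mock.

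Most ribosomal protein genes had more newly made RNA in MPI-2 than in BMM, with and without LPS. Without LPS, 35 of the 59 genes were higher in MPI-2 and 3 were lower, with a median log2 difference of 0.84. Over all genes measured, 20.6% were higher and 18% were lower, with a median of -0.10. With LPS, 37 of the 59 genes were higher in MPI-2 and 3 were lower, with a median of 0.87, against 22.5% and 21.6% of all genes and a median of -0.14. Among the 12030 genes above background, 33.2% were higher in MPI-2 in mock and 36.5% in LPS. All MPI-2 arrays lay above all BMM arrays for 34 genes in mock, against 23% of all genes, and for 39 genes in LPS, against 24.4%. They lay below for 3 genes in mock, against 29.3%, and for 5 in LPS, against 31.1%. The comparisons in mock and in LPS share no array. Of the genes higher in MPI-2, 34 were so in both, which is 97.1% of those in mock and 91.9% of those in LPS. Rps14 passed in mock alone, and Rpl22, Rpl36 and Rps28 in LPS alone. Of these 4, Rps14, Rpl36 and Rps28 were lost under cyclic loess and quantile normalization. All values in a cell type are relative to the newly made RNA on the array, so a larger share of it and more RNA per cell cannot be told apart, nor can fewer cells of a type and less RNA per cell.

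**Figure D1:**
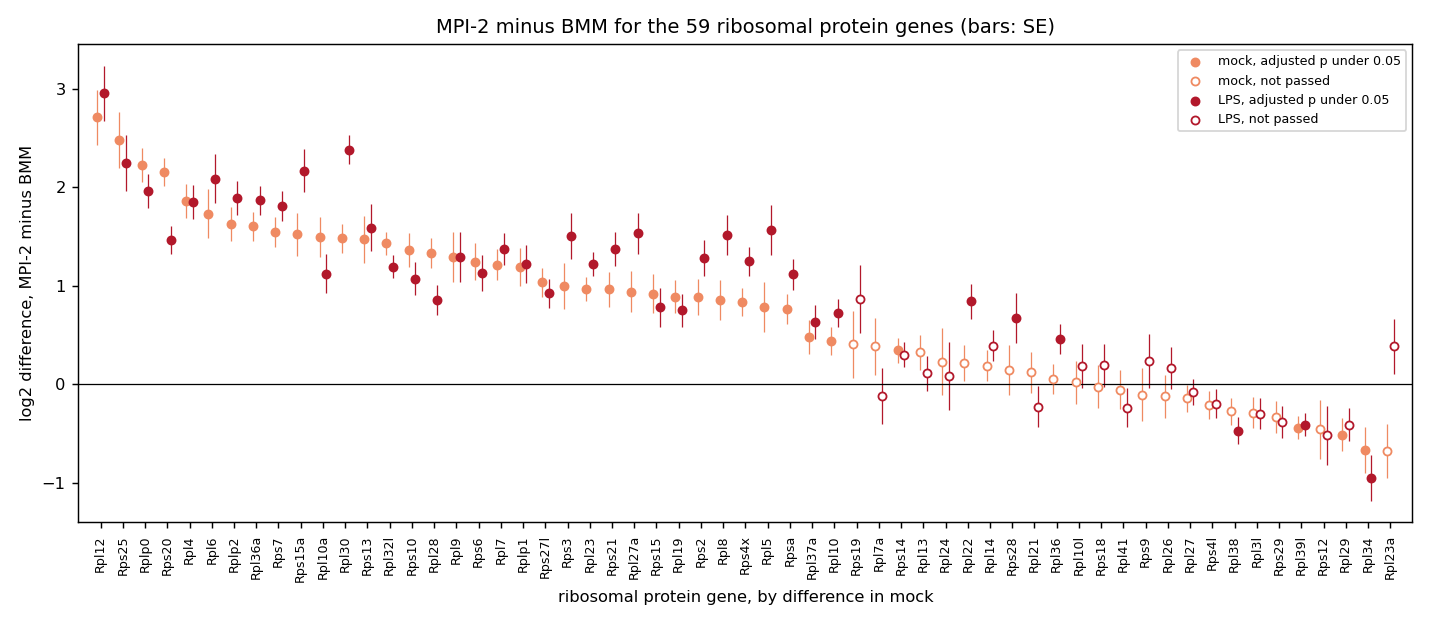
Log2 difference of newly made RNA, MPI-2 minus BMM, for each of the 59 genes (x axis, ordered by the difference in mock), in mock (orange) and LPS (red). Points are limma estimates, bars their SE, and filled points passed an adjusted p of 0.05. The points run between Rpl12 at 2.71 and Rpl23a at -0.68 in mock, with 35 filled points above 0 and 3 below.

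The median of the 59 genes on each array separated the cell types. It was 7.44, 7.50 and 7.48 log2 units on the MPI-2 LPS arrays and 7.37, 7.35 and 7.39 on the MPI-2 mock arrays. On the BMM LPS arrays it was 6.38, 6.51 and 6.60, and on the BMM mock arrays 6.98, 6.68 and 6.44. Every MPI-2 array was thus above every BMM array, while BMM mock replicate 1 lay nearest to MPI-2. After cyclic loess scaling of the deposited values, the counts were 31 higher and 7 lower in mock and 31 higher and 8 lower in LPS. Of all genes, 17.9% were then higher and 15.4% lower in mock, and 18.1% and 17.8% in LPS. After quantile normalization the counts of the 59 genes were 31 higher and 7 lower in mock, against 17.6% and 14.7% of all genes. Under loess, the median difference of all genes moved to -0.02 in mock and -0.03 in LPS, and the median of the 59 genes to 0.53 and 0.57. When the arrays least like their groups were left out together (replicate 1 of BMM mock and replicate 3 of BMM LPS, a choice made after the values were seen), 38 genes were higher and 3 lower in mock, and 36 higher and 4 lower in LPS. Without these arrays, 21.6% of all genes were higher and 18.5% lower in mock, and 23% and 23.8% in LPS. The count lower in mock was 1 without MPI-2 mock replicate 2, and the count lower in LPS was 5 without BMM LPS replicate 2. In these runs, 13.2% of all genes were lower in mock and 23.5% in LPS.

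Rpl12, a large subunit protein at the base of the stalk, had the largest difference of the 59 genes in both treatments. Its log2 level was 7.23, 6.78 and 7.18 on MPI-2 mock arrays, against 3.76, 5.15 and 4.15 on BMM mock arrays. In LPS it was 7.07, 7.11 and 7.17 in MPI-2, against 3.68, 4.33 and 4.48 in BMM. No BMM array reached an MPI-2 array. The difference was 2.71 ± 0.28 (SE) in mock, or 6.54-fold (limma adjusted p = 1.04e-06), and 2.95 ± 0.28 in LPS (limma adjusted p = 3.14e-07). Rpl12 also had the largest SD over the 12 arrays among the 59 genes.

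Rplp0, Rplp1 and Rplp2 encode the acidic proteins of the lateral stalk, which recruits the translation GTPases. Rplp0 had 10.15, 9.90 and 9.94 log2 units in MPI-2 mock, against 8.23, 7.62 and 7.48 in BMM mock. Its level in LPS was 9.73, 9.71 and 9.69 in MPI-2, against 7.84, 7.88 and 7.53 in BMM. The cell types did not overlap in either treatment, and the differences were 2.22 ± 0.17 and 1.96 ± 0.17 (limma adjusted p = 3.84e-08 in mock and 1.27e-07 in LPS). Rplp2 had a mean of 6.21 ± 0.20 (SD, n = 3) in MPI-2 mock, against 4.59 ± 0.17 in BMM mock. Its differences were 1.63 in mock and 1.89 in LPS. Rplp1 differed by 1.19 in mock and 1.22 in LPS (limma adjusted p = 0.000137 and 9.34e-05). Its cell types did not overlap either, and BMM mock replicate 1, at 8.99, lay nearest to MPI-2.

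In the small subunit, 15 of 22 genes were higher in MPI-2 in mock and 15 in LPS, and none was lower. Rps25, which viral internal ribosome entry sites need, had 8.11, 8.04 and 7.93 in MPI-2 mock, against 5.45, 5.76 and 5.45 in BMM mock. In LPS it had 8.10, 8.05 and 8.18 in MPI-2, against 5.02, 5.82 and 6.75 in BMM, where the 3 arrays were spread over more than 1 log2 unit. All MPI-2 arrays were still above all BMM arrays, and the differences were 2.47 ± 0.28 in mock and 2.25 ± 0.28 in LPS (limma adjusted p = 3.64e-06 and 8.58e-06). Among the 6 probe sets of Rps25, calls in mock went in both directions. With the mean of these probe sets the gene was still called higher in both treatments. Rps20, a protein of the small subunit head, had 9.94, 9.61 and 9.70 in MPI-2 mock, against 7.59, 7.79 and 7.42 in BMM mock, a difference of 2.15 ± 0.14 (limma adjusted p = 7.81e-09). Rps15a differed by 1.52 ± 0.22 in mock and 2.17 ± 0.22 in LPS (limma adjusted p = 3.72e-05 and 6.72e-07). Other small subunit genes higher in both treatments were Rps2, Rps4x, Rps7, Rps10, Rps13, Rps15 and Rps21, with differences between 0.84 (Rps4x) and 1.55 (Rps7) in mock and between 0.78 (Rps15) and 1.81 (Rps7) in LPS. The call of Rps15 in LPS was lost under cyclic loess and quantile normalization, and its probe set numbered beside the gene's own neighbours did not pass in LPS (0.73, limma adjusted p = 0.0813 over all probe sets). Rps14 passed in mock at 0.34 and Rps28 in LPS at 0.67. Rps9, Rps12, Rps18 and Rps29 passed in neither treatment, at -0.10, -0.46, -0.03 and -0.33 in mock.

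Rps6, the substrate of the S6 kinases downstream of mTOR, had the highest mean of the 59 genes. It was at 11.98, 11.90 and 12.18 in MPI-2 mock, against 10.42, 10.82 and 11.09 in BMM mock, and at 11.73, 12.08 and 11.97 in MPI-2 LPS, against 10.79, 10.48 and 11.12 in BMM LPS. The cell types did not overlap, and the differences were 1.25 ± 0.19 in mock and 1.13 ± 0.19 in LPS (limma adjusted p = 5.27e-05 and 0.000122). Rps3, a protein of the messenger RNA entry channel with a second role in DNA repair, had a mean of 7.88 ± 0.09 in MPI-2 mock (SD, n = 3), against 6.88 ± 0.68 in BMM mock. Rpsa, also known as the laminin receptor, differed by 0.76 and 1.11. Both passed the threshold in mock and in LPS.

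Rps19, the gene most often mutated in Diamond-Blackfan anaemia, did not pass. It had 5.92, 5.59 and 5.86 in MPI-2 mock, against 5.57, 5.65 and 4.95 in BMM mock, and 5.59, 5.96 and 5.51 in MPI-2 LPS, against 5.29, 5.48 and 3.68 in BMM LPS. The mock groups overlapped. The LPS groups did not, but BMM LPS replicate 3 lay far below the other BMM LPS arrays, and the difference of 0.87 ± 0.34 missed the threshold (limma adjusted p = 0.0522). The same difference passed with the replicate number as a block and among genes above background alone, and without the 2 BMM arrays named above Rps19 passed in mock (0.49) and not in LPS (0.30). Rps27l, a paralog of Rps27 that p53 induces, was higher in MPI-2 by 1.03 ± 0.15 in mock and 0.92 ± 0.15 in LPS (limma adjusted p = 3.76e-05 and 0.000104).

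**Figure D2:**
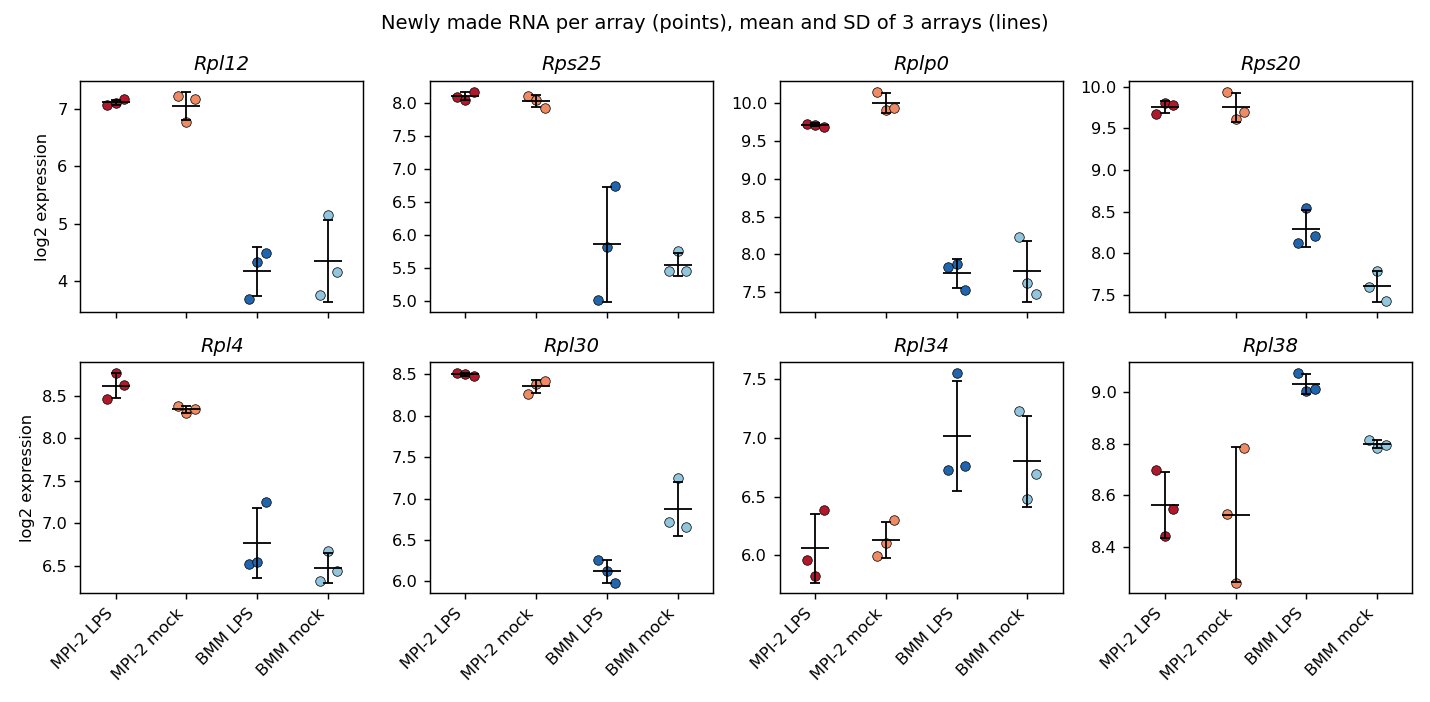
Log2 level of newly made RNA on each array (points) with the mean and SD of the 3 arrays of a group (lines), for 8 genes in MPI-2 LPS, MPI-2 mock, BMM LPS and BMM mock. Rpl12, Rps25, Rplp0, Rps20, Rpl4 and Rpl30 are higher on every MPI-2 array than on every BMM array, while Rpl34 is lower on every MPI-2 array than on every BMM array. The y axes differ between panels and do not start at 0.

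In the large subunit, 20 of 37 genes were higher in MPI-2 in mock and 22 in LPS, and 3 were lower in each. Rpl4, a core protein that lines the exit tunnel, had 8.38, 8.30 and 8.34 in MPI-2 mock, against 6.33, 6.67 and 6.44 in BMM mock, and 8.46, 8.76 and 8.63 in MPI-2 LPS, against 6.53, 6.54 and 7.25 in BMM LPS. The differences were 1.86 ± 0.17 and 1.85 ± 0.17 (limma adjusted p = 3.64e-07 and 3.15e-07), and no arrays overlapped. Rpl6 differed by 1.73 ± 0.25 in mock and 2.09 ± 0.25 in LPS (limma adjusted p = 4.14e-05 and 4.85e-06). Rpl5, which forms the particle with 5S ribosomal RNA and Rpl11 that inhibits Mdm2, differed by 0.79 in mock (limma adjusted p = 0.0221) and 1.57 in LPS (limma adjusted p = 0.000104). The call of Rpl5 in mock was lost under cyclic loess, where the difference was 0.44, and under quantile normalization, where it was 0.56. Rpl22, a protein dispensable for translation in most mouse cells, differed by 0.21 in mock, where the groups overlapped, and by 0.84 ± 0.18 in LPS (limma adjusted p = 0.00142).

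Other large subunit genes higher in both treatments were Rpl7, Rpl8, Rpl9, Rpl10, Rpl10a, Rpl19, Rpl23, Rpl27a, Rpl28, Rpl36a and Rpl37a. Their differences lay between 0.44 (Rpl10) and 1.60 (Rpl36a) in mock and between 0.63 (Rpl37a) and 1.87 (Rpl36a) in LPS. Rpl36a, encoded on the X chromosome, had 8.16, 8.14 and 7.91 in MPI-2 mock, against 6.65, 6.24 and 6.50 in BMM mock, without overlap. Rpl10, another X-linked gene, whose protein joins late in large subunit assembly, had 10.24, 10.09 and 10.33 in MPI-2 mock, against 9.79, 9.52 and 10.04 in BMM mock. Its arrays did not overlap, and the call (limma adjusted p = 0.024 as deposited) was lost in mock under both other scalings and with the mean of its probe sets, and in LPS under cyclic loess. Rpl37a, whose arrays overlapped in mock, lost the call under both other scalings in both treatments, and in mock in 9 of 19 alternatives in all. Rpl19 lost the call in LPS under cyclic loess and at its own neighbourhood. In mock Rpl19 lost the call with the mean of its probe sets. At its own neighbourhood it was lower in mock (-1.22, limma adjusted p = 0.00345 over all probe sets). Rpl27a lost the call in mock with the mean of its probe sets. Rpl7a, Rpl13, Rpl14, Rpl21, Rpl23a, Rpl24, Rpl26 and Rpl41 passed in neither treatment, with differences in mock between -0.68 (Rpl23a) and 0.38 (Rpl7a).

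Few of the genes were lower in MPI-2. Rpl34 had 5.99, 6.10 and 6.30 in MPI-2 mock, against 7.23, 6.48 and 6.69 in BMM mock, and 5.96, 5.83 and 6.39 in MPI-2 LPS, against 6.73, 7.55 and 6.76 in BMM LPS. All MPI-2 arrays lay below all BMM arrays of the same treatment. The differences were -0.67 ± 0.23 in mock and -0.95 ± 0.23 in LPS (limma adjusted p = 0.0318 and 0.00333), and the call in mock was lost without BMM mock replicate 1, MPI-2 mock replicate 1 or MPI-2 mock replicate 2. Rpl29 differed by -0.51 ± 0.17 in mock (limma adjusted p = 0.0255) and -0.41 ± 0.17 in LPS (limma adjusted p = 0.0588), and its call in mock was lost without MPI-2 mock replicate 2 or 3 or BMM mock replicate 1 or 3.

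Rpl38, which in mouse embryos is needed for the translation of Hox messenger RNAs, had 8.70, 8.44 and 8.55 in MPI-2 LPS, against 9.07, 9.01 and 9.01 in BMM LPS. The difference was -0.47 ± 0.13 (limma adjusted p = 0.0101). Its other 3 probe sets went the other way, with differences between 1.58 and 2.37 in LPS and between 2.19 and 2.76 in mock, all past the threshold in a limma fit over all 34760 probe sets. The mean of its 4 probe sets differed by 1.43 in LPS. The direction for Rpl38 therefore rested on the probe set used, the one numbered beside the gene's own neighbours. Rpl27, the gene with the lowest SD over the 12 arrays, differed by -0.14 in mock and -0.08 in LPS and did not pass, and its direction depended on the processing. It passed as lower under cyclic loess (-0.50 in mock and -0.51 in LPS) and, in mock, under quantile normalization (-0.40), while the mean of its 3 probe sets differed by 0.74 and 0.62.

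Paralogs with a restricted pattern were at or near background. Rpl3l, a muscle paralog of Rpl3, had means of 2.41 ± 0.13 in MPI-2 mock (SD, n = 3), against 2.70 ± 0.25 in BMM mock. Rpl10l, which takes the place of Rpl10 in male germ cells, had 2.98 ± 0.22, against 2.96 ± 0.09. Rps4l had 3.34 ± 0.03 in MPI-2 mock, against 3.55 ± 0.29 in BMM mock. None of these passed the threshold in any comparison. Rpl39l, a testis paralog of Rpl39 and the gene with the lowest mean of the 59, passed as lower in MPI-2 (-0.44 in mock and -0.41 in LPS), but its levels of 2.21 ± 0.12 in MPI-2 mock and 2.65 ± 0.07 in BMM mock were not above background, and its call in LPS was lost under cyclic loess (-0.25) and quantile normalization (-0.27). Rpl32l was above background in MPI-2, at 3.81 ± 0.10 in LPS and 4.17 ± 0.05 in mock, and not above it in BMM, at 2.62 ± 0.10 in LPS and 2.74 ± 0.13 in mock.

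Because near-identical copies are spread over the genome, the place of each probe set was checked. Probe set numbers on this array follow chromosome order, and 97.4% of 20880 probe sets that could be checked lay within 5 Mb of genes named by their numerical neighbours. By this check, the probe set with the highest mean was numbered beside the gene's own neighbours in 30 of the 59 genes and elsewhere in 29, of which 27 were on another chromosome. Rpl5, Rpl6, Rpl13, Rpl23a, Rpl29, Rps2 and Rps6 are among the genes placed elsewhere, and whether their values come from a copy was not tested. Of the 30 genes with a probe set beside their own neighbours, 18 were higher in MPI-2 in mock and 20 in LPS. Of the other 29 genes, 17 were higher in mock and 17 in LPS. With the own-neighbourhood probe set for the 51 genes that had one, 35 were higher and 4 lower in mock, and 38 higher and 3 lower in LPS.

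For 21 genes the probe set at their own neighbourhood was not the one with the highest mean. In mock, 18 of these pairs had the same call, 14 of them both higher in MPI-2. Rpl19 had opposite calls, with 0.89 at the chosen probe set and -1.22 at its own neighbourhood. Rps18 did not pass at the chosen probe set (-0.03) and was higher at its own neighbourhood, by 2.28 in mock (limma adjusted p = 0.000665 over all probe sets). Rpl13 did not pass at the chosen probe set (0.32) and was higher at its own neighbourhood (0.79). In LPS, 16 of the 21 pairs had the same call, 12 of them both higher, and none had opposite calls. Over all 191 probe sets that named a gene of the 59 alone, 92 were higher and 5 lower in mock, and 108 higher and 4 lower in LPS. Over all 34760 probe sets of that fit, 16.1% were higher and 14.3% lower in mock, and 18.8% higher and 16.1% lower in LPS. Of the 38 genes with several probe sets, 30 had at least 1 probe set higher and none lower in mock, and Rpl10, Rpl19 and Rps25 had probe sets of both calls.

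**Figure D3:**
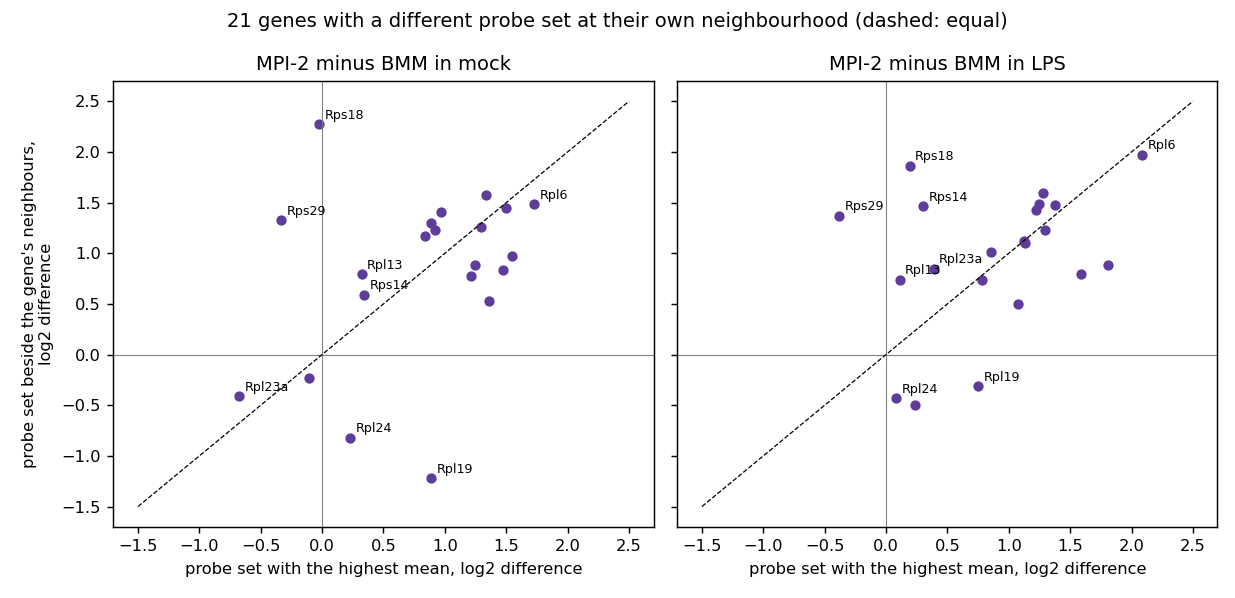
Log2 difference of MPI-2 minus BMM at the probe set with the highest mean (x axis) and at the probe set numbered beside the gene's own neighbours (y axis), for the 21 genes where these are not the same, in mock (left) and LPS (right). The dashed line marks equal differences. Rps18 stands above the line at 2.28 in mock and Rpl19 below it at -1.22.

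SnoRNA genes lie within the span of 19 of the 59 genes in the RefSeq annotation. Of these 19, 14 were higher in MPI-2 in mock and 14 in LPS, and none was lower, with median differences of 0.94 and 1.46. Of the other 40 genes, 21 were higher and 3 lower in mock, and 23 higher and 3 lower in LPS, with medians of 0.44 and 0.76. Rpl4 holds 5 snoRNA genes in its span and Rpl7a holds 4, and Rpl7a did not pass in either treatment (0.38 in mock and -0.12 in LPS). The probe set of Rpl7a was numbered away from the gene's own neighbours, with group means of 3.69 to 4.35, near background. Rpl13, Rpl21, Rpl23a and Rps12 also passed in neither treatment and were also read at probe sets numbered elsewhere. So were Rpl5, Rpl6, Rpl23, Rps2 and Rps13, which were higher in both treatments. The difference between the 2 sets of genes was not tested.

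LPS changed few of these genes. In MPI-2, 0 of the 59 genes passed limma's threshold in either direction, against 5.17% of all genes higher and 9.58% lower. The median in MPI-2 was 0.03, and every gene lay between -0.40 (Rplp1) and 0.44 (Rpl29). Rpl23, Rpl29 and Rpl32l had an unadjusted p under 0.05 in MPI-2, and a limma fit of the MPI-2 groups alone called 2 genes higher and 2 lower. That separate fit called 9.3% of all genes higher and 15.9% lower. In BMM, 2 of the 59 genes were higher and 7 were lower after LPS, with a median log2 difference of -0.10, against 10.3% and 15.4% of all genes and a median of 0.04. All LPS arrays lay above all mock arrays for 9 genes in MPI-2, against 16.6% of all genes, and for 3 genes in BMM, against 15.6%. They lay below for 8 genes in MPI-2, against 20.5%, and for 3 genes in BMM, against 16.5%. After cyclic loess the counts in BMM were 3 higher and 3 lower, and after quantile normalization 3 higher and 5 lower. Of all genes, 12.1% were higher and 12.2% lower in BMM under cyclic loess, and 11.9% and 13% under quantile normalization. Without 1 array, the count lower in BMM fell to 3 or 4 for 8 of the 12 arrays: MPI-2 mock replicate 3, all 3 MPI-2 LPS arrays, BMM LPS replicates 1 and 3, and BMM mock replicates 1 and 2. The count higher in BMM was 4 without BMM mock replicate 1, and 1 without BMM mock replicate 3 or MPI-2 LPS replicate 3. Over the runs without 1 array, 8.6% to 11.8% of all genes were higher in BMM and 13% to 16.1% lower. In MPI-2, 1 gene was higher without BMM LPS replicate 3, and 1 was lower without BMM LPS replicate 2 or 3 or BMM mock replicate 1 or 3.

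**Figure D4:**
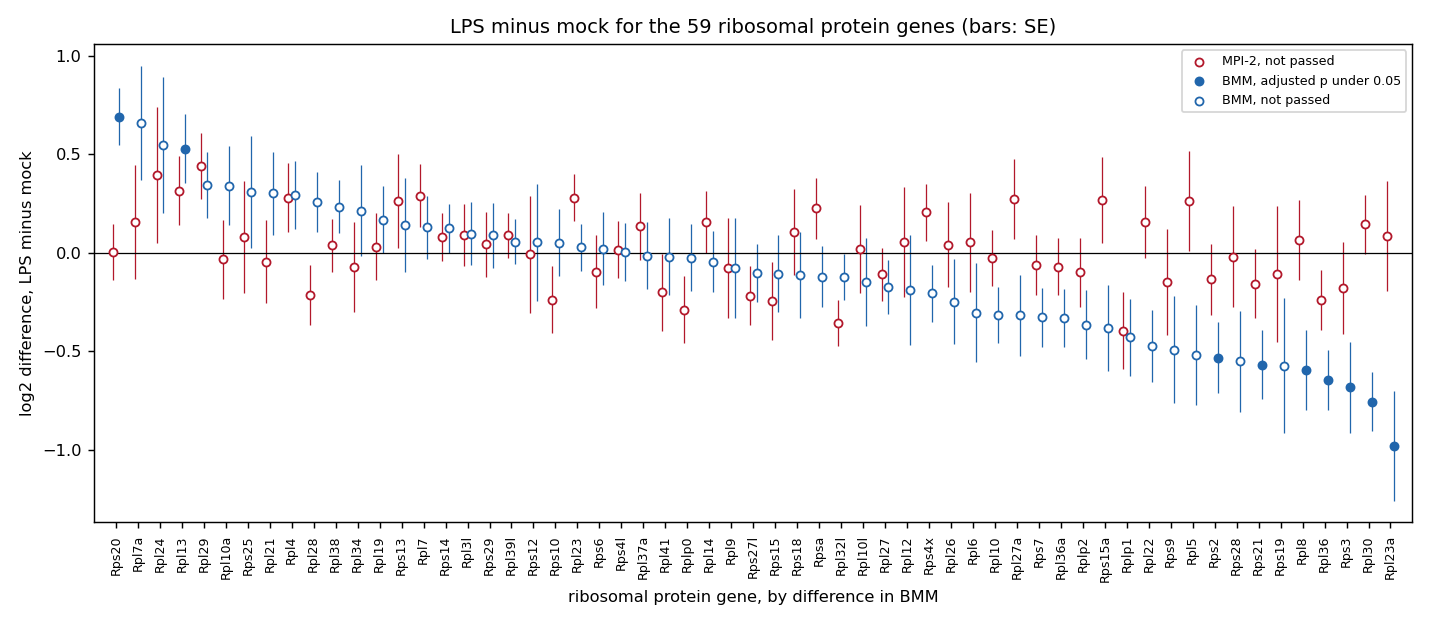
Log2 difference of LPS minus mock for each of the 59 genes (x axis, ordered by the difference in BMM), in MPI-2 (red) and BMM (blue). Points are limma estimates, bars their SE, and filled points passed an adjusted p of 0.05. None of the MPI-2 points is filled, against 9 of the BMM points.

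Rps20 rose after LPS in BMM. In MPI-2 it had 9.68, 9.81 and 9.78 in LPS, against 9.94, 9.61 and 9.70 in mock, a difference of 0.00 ± 0.14 (limma adjusted p = 0.992). In BMM it had 8.12, 8.54 and 8.21 in LPS, against 7.59, 7.79 and 7.42 in mock, so the BMM groups did not overlap. The BMM difference was 0.69 ± 0.14 (limma adjusted p = 0.00177), and it passed in every alternative run. Rpl13 also rose in BMM, with 6.63, 6.50 and 6.95 in LPS, against 6.43, 5.91 and 6.15 in mock (0.53 ± 0.17, limma adjusted p = 0.0368). At its own neighbourhood the difference of Rpl13 was 0.11, which did not pass, and the call was also lost without any one of 5 arrays.

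Rpl30, whose yeast counterpart binds its own transcript, fell after LPS in BMM. In MPI-2 it had 8.52, 8.50 and 8.48 in LPS, against 8.26, 8.38 and 8.42 in mock (0.15 ± 0.15, limma adjusted p = 0.68). In BMM it had 6.26, 6.12 and 5.98 in LPS, against 6.71, 7.25 and 6.66 in mock, without overlap (-0.76 ± 0.15, limma adjusted p = 0.00115). It was the single gene of the 7 lower ones whose call held in every alternative. Rpl36 fell to 9.27, 9.13 and 8.75 in BMM LPS, against 9.60, 9.92 and 9.56 in BMM mock (-0.64 ± 0.15, limma adjusted p = 0.00453). Rps21 fell to 4.37, 4.77 and 4.01, against 4.99, 5.08 and 4.78 in BMM mock (-0.57 ± 0.17, limma adjusted p = 0.0251). Rpl30, Rpl36 and Rps21 were the 3 genes called lower whose BMM groups did not overlap. The other 4 called lower, whose arrays overlapped, were Rpl23a (-0.98), Rps3 (-0.68), Rpl8 (-0.59) and Rps2 (-0.53). The call of Rpl36 was lost with the mean of its probe sets (-0.12). The call of Rps21 was lost under cyclic loess (-0.34), under quantile normalization (-0.46), with the mean of its probe sets (-0.28), in a fit of the BMM groups alone, without BMM LPS replicate 1 or 3, without BMM mock replicate 1 or 2, and without the 2 BMM arrays named above. The call of Rps3 was lost under cyclic loess and quantile normalization (-0.55 in each), in the fit of the BMM groups alone, without any one of 11 of the 12 arrays and without those 2 BMM arrays. Rps2 kept its call in 5 of 20 alternatives and Rpl8 in 8 of 20, and both were lost under cyclic loess. The call of Rpl23a was lost without BMM LPS replicate 1 or 2 or BMM mock replicate 2 or 3.

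The interaction, which tests whether the LPS response in MPI-2 differed from that in BMM, passed for 2 of the 59 genes, against 7.08% of all genes higher and 6.27% lower. For Rpl30 the response in MPI-2 minus that in BMM was 0.90 ± 0.21 (limma adjusted p = 0.00861). For Rps20 it was -0.69 ± 0.20 (limma adjusted p = 0.035). The call for Rps20 was lost without any one of 7 arrays, which were each MPI-2 LPS array, MPI-2 mock replicates 1 and 3, BMM LPS replicate 2 and BMM mock replicate 3. The interaction was higher for 2 genes without BMM LPS replicate 1 or BMM mock replicate 1, and for 3 without BMM LPS replicate 2 or 3 or BMM mock replicate 3. Among the stalk genes, the interaction was -0.26 ± 0.24 for Rplp0, 0.03 ± 0.28 for Rplp1 and 0.26 ± 0.25 for Rplp2, and none passed. Rpl23a had the largest estimate, 1.06 ± 0.39, which did not pass (limma adjusted p = 0.0977).

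Other genes of the translation apparatus were read in the same fit. Ribosome assembly and nucleolar factors were higher in MPI-2 in 50 of 54 measured genes in mock and 48 in LPS, with 0 lower in each and median differences of 1.42 and 1.59. Dkc1, the pseudouridine synthase of box H/ACA particles, had a mean of 7.68 ± 0.03 in MPI-2 mock (SD, n = 3), against 3.64 ± 0.22 in BMM mock, and differed by 4.05 (limma adjusted p = 1.25e-10). Nop56, a core protein of box C/D particles, differed by 1.95 in mock and 2.18 in LPS. Polr1b, a subunit of RNA polymerase I, differed by 2.03 and 2.23. Fbl and Ncl did not pass in mock, at 0.36 and 0.51, and passed in LPS, at 0.70 and 1.29.

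Translation factors and other genes of the pyrimidine-start class were higher in MPI-2 in 14 of 17 measured genes in mock and 16 in LPS, with 0 lower and medians of 0.97 and 1.09. Npm1, a nucleolar chaperone, had the largest difference of this list, 2.76 in mock and 3.59 in LPS. Eef1b2, an exchange factor for the elongation factor eEF1A, differed by 1.94 and 1.97. Eef1a1 differed by 0.45 and 0.80. Mitochondrial ribosomal proteins were higher in MPI-2 in 42 of 77 genes and lower in 0 in mock, and higher in 44 and lower in 1 in LPS, with medians of 0.64 and 0.79. Fau, which encodes a precursor of a small subunit protein, differed by 0.82 and 1.17, and Rpl7l1, a paralog of Rpl7, by 0.93 and 1.17. All 4 of these estimates passed.

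**Figure D5:**
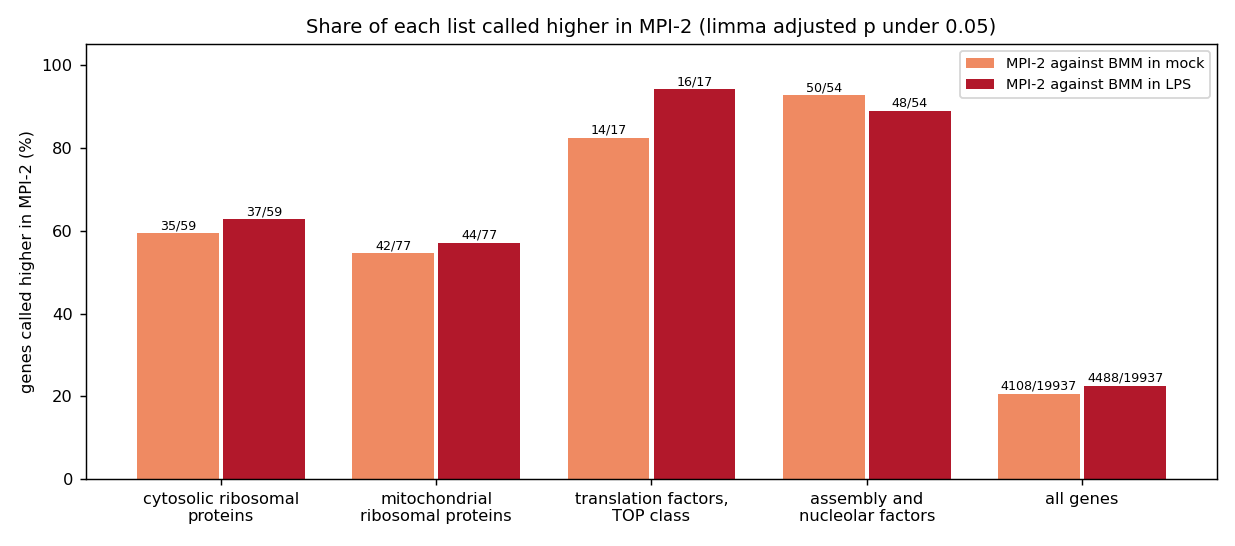
Percent of genes called higher in MPI-2 than in BMM (limma adjusted p under 0.05) in mock (orange) and LPS (red), for the 59 cytosolic ribosomal protein genes, mitochondrial ribosomal proteins, translation factors of the terminal oligopyrimidine class, assembly and nucleolar factors, and all genes. Numbers over the bars are genes called and genes measured. All 4 lists stand above the 20.6% and 22.5% of all genes.

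Among 19 measured regulators, 6 were higher and 3 lower in MPI-2 in mock, and 5 higher and 7 lower in LPS. These are 31.6% and 15.8% of the list in mock and 26.3% and 36.8% in LPS, against 20.6% and 18% of all genes in mock and 22.5% and 21.6% in LPS. Myc, a transcription factor that drives ribosome production, had means of 9.78 ± 0.13 in MPI-2 mock (SD, n = 3), against 8.22 ± 0.38 in BMM mock, and 8.97 ± 0.08 in MPI-2 LPS, against 7.97 ± 0.24 in BMM LPS. It was higher in MPI-2 by 1.56 in mock and 1.01 in LPS, and fell after LPS in MPI-2 (-0.80, limma adjusted p = 0.00454). Rheb, which activates mTOR complex 1, had means of 8.14 ± 0.01 in MPI-2 mock, against 7.14 ± 0.24 in BMM mock, and was higher in MPI-2 in both treatments (limma adjusted p = 0.00034 in mock and 0.000311 in LPS). Rptor, the scaffold of mTOR complex 1, was lower in MPI-2 in both treatments (-0.43 in mock and -0.39 in LPS), and Mtor was lower in LPS (-0.59). Tsc1, part of the complex that inhibits Rheb, was higher in both (0.54 and 0.51). Larp1, which binds pyrimidine-start messenger RNAs, differed by 1.38 in mock, higher in MPI-2, and by -0.68 in LPS, lower in MPI-2. After LPS it fell by 0.55 in MPI-2 and rose by 1.52 in BMM, and the interaction was -2.07 (limma adjusted p = 2.75e-06). Mdm2, the p53 ligase that free ribosomal proteins inhibit, was lower in MPI-2 in mock (-1.66) and rose after LPS in MPI-2 by 1.06.

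After LPS, the related lists had members called in both directions. In MPI-2, where 5.17% of all genes were higher and 9.58% lower, mitochondrial ribosomal proteins were higher in 1 and lower in 8 of 77 genes, assembly factors higher in 11 and lower in 2 of 54, and translation factors higher in 1 and lower in 0 of 17. In BMM, where 10.3% of all genes were higher and 15.4% lower, mitochondrial ribosomal proteins were higher in 4 and lower in 16, assembly factors higher in 5 and lower in 9, and translation factors higher in 2 and lower in 3. The shares were 1.3% and 10.4% of mitochondrial ribosomal proteins and 20.4% and 3.7% of assembly factors in MPI-2, and 5.19% and 20.8% and 9.26% and 16.7% in BMM, so the assembly factors in BMM and the lower mitochondrial genes in MPI-2 were near the share of all genes. Polr1e, a subunit of RNA polymerase I, rose most among assembly factors in MPI-2 (1.23), and Rrp1b fell most in both cell types (-0.99 in MPI-2 and -1.01 in BMM).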

How the data were processed

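Newly made RNA of 12 cell cultures was measured on Affymetrix whole-transcript arrays. The deposited table holds 1 value per probe set and array, made by the authors with RMA in the package affy, per the submitters' processing notes, which name no version. RMA corrects background, normalizes between arrays and summarises probes. The deposited arrays still differed in distribution by cell type. Each BMM array had a higher median value (3.71 to 3.79 log2 units) than any MPI-2 array (3.60 to 3.65). BMM arrays also had a narrower interquartile range, 2.38 to 2.88, against 2.95 to 3.21 for MPI-2 arrays. Cyclic loess and quantile normalization rescaled the arrays. The part of this distribution difference in the cell type results was not otherwise tested. The log2 scale of the deposited values was taken from that method and from their range.

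Of 34760 probe sets, 21640 named 1 gene, 1321 several and 11799 none in the platform annotation, and the 21640 gave 19937 genes, each read from its brightest probe set by mean over all arrays. Genes were fitted with limma 3.58.1 (R 4.3.3) with 4 group means, and 5 comparisons were tested with Benjamini-Hochberg adjustment over 19937 genes. The fit was tested on simulated data. The number of arrays limits the precision, and p-values measure the spread between these cultures.

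The 59 genes, the related lists and the markers were chosen with earlier results of these data known. Genes named with values were the 5 with the largest difference in each direction among those past the threshold (and without overlap of the 2 groups), the stalk genes, Rpsa, Rps6, Rps3, Rps19, Rpl5, Rpl22, restricted or induced paralogs, and the genes with the highest and lowest mean and SD. Other named genes were chosen after their values were seen. Alternatives were cyclic loess, quantile normalization, a background filter, the mean of a gene's probe sets, separate fits, the replicate number as a block and leaving out each array. Added after seeing the data were the own-neighbourhood probe set and leaving out 2 BMM arrays together. For the own-neighbourhood probe set, the 10 probe sets of other genes nearest in number, over both sides together, were read. Their most common chromosome had to be that of the gene. The median start of the neighbours on it had to lie within 5 Mb of the gene. Promoter letters are from RefSeq (GRCm38.p6), 250 bases before and 50 after each start.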

Additional observations from a re-analysis of the deposited data

Results flagged for a closer look

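Rpl30 and Rps20 were the genes of the 59 whose LPS response differed between the cell types by the interaction test. For Rpl30 the response in MPI-2 minus that in BMM was 0.90 on the log2 scale: LPS minus mock was 0.15 in MPI-2 and -0.76 in BMM. All 3 MPI-2 LPS arrays were above all MPI-2 mock arrays, while all 3 BMM LPS arrays were below all BMM mock arrays. The change in MPI-2 did not pass (limma adjusted p = 0.68), and 16.6% of all genes had their MPI-2 arrays in that order. The fall in BMM passed, and 16.5% of all genes had their BMM arrays in that order. The estimate ran between 0.71 and 1.01 over the alternatives, and the call held in all 19 of them.

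For Rps20 the response in MPI-2 minus that in BMM was -0.69: LPS minus mock was 0.00 in MPI-2 and 0.69 in BMM. All 3 BMM LPS arrays were above all BMM mock arrays, while the MPI-2 arrays of the 2 treatments overlapped. The estimate ran between -0.78 and -0.56, and the call held in 12 of 19 alternatives.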

How the results depend on the processing

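The counts of genes higher in MPI-2 than in BMM stayed within 1.5 times in every alternative (31 to 38 in mock, 31 to 44 in LPS). Cyclic loess and quantile normalization gave 7 genes lower in mock and cyclic loess 8 lower in LPS. Of all genes, 15.4% and 14.7% were lower in mock under these scalings, and 17.8% in LPS under cyclic loess. Median differences moved to 0.53 (mock) and 0.57 (LPS) under cyclic loess and to 0.61 and 0.72 under quantile normalization, and to 1.11 in LPS at own-neighbourhood probe sets. With the mean of all probe sets, Rpl27 turned to 0.74 in mock and 0.62 in LPS and Rpl38 to 1.43 in LPS. Of 35 genes higher in mock, 29 kept the call in every alternative, and of 37 in LPS, 31 did. In MPI-2 after LPS, 2 were higher in a separate fit, 1 at own-neighbourhood probe sets and 1 without the 2 least alike BMM arrays, and lower were 1 under cyclic loess, 1 with the mean of probe sets, 2 in a separate fit and 2 without the 2 arrays. The separate fit called 9.3% of all genes higher and 15.9% lower in MPI-2. In BMM after LPS, the count higher was 1 with the mean of probe sets and in a separate fit and 6 without those 2 arrays, and the count lower was 3 under cyclic loess, in a separate fit and without those arrays. Of all genes in BMM, 6.63% were higher and 10.7% lower in the separate fit, and 11.7% and 16% without those arrays. The interaction called 2 higher with the mean of probe sets, 2 with the replicate block, 3 at own-neighbourhood probe sets, and 3 higher and 2 lower without the 2 arrays. The causes of these moves were not tested.

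Leaving out 1 array gave 31 to 36 higher and 1 to 4 lower in mock, 35 to 39 higher and 3 to 5 lower in LPS, 0 to 1 in each direction for LPS in MPI-2, 1 to 4 higher and 3 to 9 lower for LPS in BMM, and 1 to 3 higher and 0 to 1 lower for the interaction. Across these runs, 18.2% to 21.7% of all genes were higher and 13.2% to 20.4% lower in mock. In LPS these shares were 20.2% to 23.3% and 14.6% to 23.5%. For LPS in MPI-2 they were 3.93% to 5.97% and 6.61% to 11.2%, and in BMM 8.6% to 11.8% and 13% to 16.1%. For the interaction they were 5.24% to 8.55% and 4.99% to 7.44%. Same-numbered LPS and mock deviations correlated between -0.18 and 0.04 in MPI-2 and between -0.10 and 0.29 in BMM. Pairs of unlike numbers correlated between -0.07 and 0.21 in MPI-2 and between -0.24 and 0.26 in BMM. These deviations are from means of only 3 arrays, so they cannot show whether array numbers pair the samples. With the replicate block, 34 genes were higher and 4 lower in mock, 38 and 3 in LPS, 2 and 8 for LPS in BMM. Of all genes, 20.7% were then higher and 17.6% lower in mock, 22.8% and 21.3% in LPS. For LPS in BMM the shares of all genes were 10.2% and 15.8%. Signal near or below background limits Rpl3l, Rpl10l, Rpl39l and Rps4l, and Rpl32l in BMM. The wider spread of BMM arrays limits every comparison of the 4-group fit, LPS in MPI-2 included.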

Other observations

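Probe sets that name a ribosomal protein gene together with other genes were left out of the 59 genes. There were 203 of them, and 91 were higher in MPI-2 and 3 lower in mock, with a median log2 difference of 0.58. These are 44.8% and 1.48% of the 203, against 16.1% and 14.3% of all 34760 probe sets. In LPS, 103 were higher and 4 lower, with a median of 0.68, or 50.7% and 1.97%, against 18.8% and 16.1% of all probe sets. After LPS, 0 were higher and 1 lower in MPI-2, and 4 were higher and 4 lower in BMM, against 3.03% higher and 5.03% lower of all probe sets in MPI-2 and 6.89% and 10.8% in BMM. These are limma calls over all 34760 probe sets.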
